A study of Mus musculus with 6 samples.

Results

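The monocarboxylate transporter family, encoded by the Slc16 genes, was examined in lymphatic endothelial cells (LECs), which form the inner lining of lymphatics, from healthy mouse skin and from tumours. The members were all probe sets whose platform annotation gave a single symbol among Slc16a1, Slc16a3, Slc16a6, Slc16a7, Slc16a9, Slc16a10, Slc16a11, Slc16a12 and Slc16a13. This gave 15 probe sets for 9 genes, of 45101 probe sets on each array. The family was chosen by the difference of Slc16a13 between these same groups, which earlier results had placed among the most negative. The values of the members are therefore a description, given with their errors but without p-values, and they support no claim about the family.

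The healthy group held 3 samples of LECs from mammary skin of balb-c/nude mice. The tumour group held 3 samples of LECs from subcutaneous MDA-MB-435 xenografts, excised 8 weeks after injection. MDA-MB-435 is a human line of melanoma origin that had earlier been taken for breast cancer. The labels used here give no strain for the tumour-bearing mice and no other genotype, agent or age for either group. Nude mice lack mature T cells, and the tumour samples all come from this single line. In both groups, LECs were found on sections by a short LYVE-1 stain and cut out by laser capture, and their RNA went through 1 round of Ribo-SPIA amplification before hybridization. The labels speak of biological replicates and tie none to an animal, so errors and p-values here reflect how these samples vary, which may be technical in part. With 3 arrays a group, precision is low.

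Monocarboxylate transporters are membrane proteins that move small organic acids and related molecules across the plasma membrane. The best-known members carry lactate, pyruvate and ketone bodies together with a proton, so that the direction of flow follows the gradients of both. MCT1 and MCT4 reach the cell surface bound to the glycoprotein basigin. Other members carry amino acids, thyroid hormone, carnitine or creatine. In tumours, lactate made by glycolytic cells can leave through MCT4 and be taken up elsewhere through MCT1, and endothelial cells are among the cells known to take it up.

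Promoter sequences are shown for the pair of lactate transporter genes whose healthy and tumour values were separate and lay in opposite directions, Slc16a1 (MCT1) and Slc16a3 (MCT4). Slc16a3 is a known target of the hypoxia-inducible factor HIF-1, which binds elements with the core ACGTG, and Slc16a1 a known target of MYC, which binds the sequence CACGTG. The 250 bases before the start site are from the RefSeq promoter table (GRCm38.p6), chr3:104638414-104638663 and chr11:120948817-120949066, both on the plus strand and printed 5′ to 3′. Capitals mark every ACGTG on either strand (its reverse complement is CACGT).
Slc16a1: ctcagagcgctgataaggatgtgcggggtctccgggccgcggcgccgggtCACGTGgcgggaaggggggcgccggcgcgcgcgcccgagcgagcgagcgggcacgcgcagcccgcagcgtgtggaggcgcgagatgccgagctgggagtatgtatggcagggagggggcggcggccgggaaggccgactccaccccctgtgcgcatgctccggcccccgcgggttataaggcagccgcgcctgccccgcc
Slc16a3: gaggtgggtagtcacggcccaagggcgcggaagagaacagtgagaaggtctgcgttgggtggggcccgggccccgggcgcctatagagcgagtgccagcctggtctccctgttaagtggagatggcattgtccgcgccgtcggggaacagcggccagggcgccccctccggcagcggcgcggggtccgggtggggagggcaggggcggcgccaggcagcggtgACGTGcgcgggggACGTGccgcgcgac
The Slc16a1 window held 1 CACGTG, which reads as ACGTG on both strands and so contains both motifs. The Slc16a3 window held 2 ACGTG on the plus strand, beginning 27 and 14 bases before the start site, and no CACGTG. The core motif on either strand was present in 5444 of 32851 windows of the same length in the table (16.6%). There were 2 or more matches, with a CACGTG counted as 2, in 2238 windows (6.81%). How often CACGTG occurs over all windows was not counted. The table listed 6 of the 9 members. The motif was also found in the window of Slc16a12, there too as 1 CACGTG, and not in those of Slc16a9, Slc16a10 and Slc16a11. Slc16a6, Slc16a7 and Slc16a13 had no entry. These are matches of letters, and binding was not measured.

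Among the members, Slc16a13 and Slc16a1 had much less signal in the tumour samples. Slc16a3 had more, with a 95% interval that included 0, and the other 6 genes had small or overlapping values. Signal is given as log2 of the deposited intensity. An array's background was taken as the 95th percentile of its 27 bacterial control probe sets, which lay between 2.96 and 3.91 (log2) over the 6 arrays. Of the 15 member probe sets, 7 were above background on at least 3 arrays, 1 was above it on all 6, and 5 were above it on none. The 7 probe sets represent 6 genes, and a probe set that passes through the group in which it is high has to differ, so no count over those that passed is given as a result. No level of one probe set is set against that of another, since probes differ in their response.

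**Figure D1:**
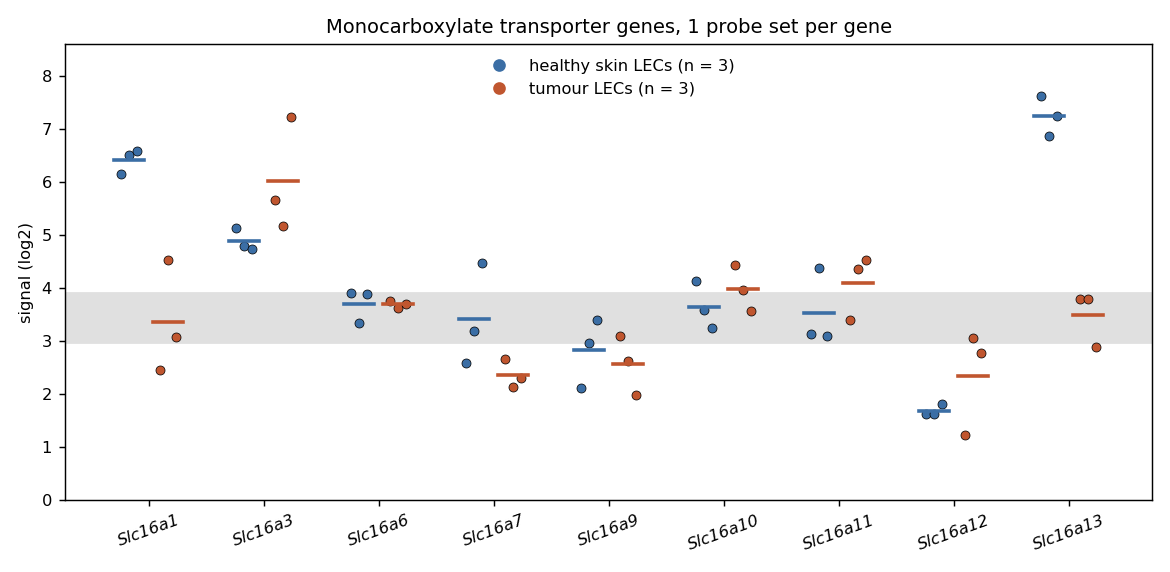
Signal (log2, vertical axis) of the probe set with the highest mean for each of the 9 genes on each array, healthy skin in blue and tumours in orange, with bars at the group means. The grey band spans the background of the 6 arrays, between 2.96 and 3.91. Slc16a1 and Slc16a13 lie above the band in healthy skin and, except for Slc16a1 in tumour replicate 2, in or below it in tumours, and Slc16a3 lies above the band on every array.

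Slc16a13 encodes MCT13, a less studied member that has been linked to lactate transport in liver. Its only probe set, 1453056_at, had signals of 7.62, 6.86 and 7.25 (log2) in healthy-skin replicates 1, 2 and 3, and of 3.80, 3.80 and 2.88 in tumour replicates 1, 2 and 3. The lowest healthy-skin value lay 3.06 above the highest tumour value. The group means were 7.24 ± 0.38 and 3.49 ± 0.53 (SD, n = 3 arrays per group), and the difference of tumour minus healthy skin was -3.75 with a standard error of 0.38 and a 95% interval from -4.64 to -2.85. Of the tumour samples, replicates 1 and 2 were above their background and replicate 3 was not, so the size of the difference is uncertain and no fold is given. Over all tested probe sets, 61 of 45037, this one included, had a difference at least as negative, which restates how the family was chosen.

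Slc16a1 encodes MCT1, the widely expressed carrier of lactate, pyruvate and ketone bodies. Its probe set 1415802_at had 6.14, 6.50 and 6.58 (log2) in the 3 healthy-skin samples and 2.46, 4.53 and 3.08 in tumour replicates 1, 2 and 3. The groups did not overlap, and of the tumour samples only replicate 2 was above its background. The means were 6.41 ± 0.24 and 3.35 ± 1.06 (SD, n = 3 arrays per group), a difference of -3.05 with a standard error of 0.54. With 2 of the 3 tumour values below background, no fold is given here either. The other Slc16a1 probe set, 1446274_at, was above background on no array, with 1.95, 1.70 and 1.67 in healthy skin and 1.77, 1.67 and 1.85 in tumours. It therefore gives no second reading of the gene.

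Slc16a3 encodes MCT4, the lactate exporter of glycolytic cells. Its probe set 1449005_at had 5.14, 4.79 and 4.73 (log2) in healthy skin and 5.65, 5.16 and 7.23 in tumour replicates 1, 2 and 3. The groups were separate by only 0.02 between healthy-skin replicate 1 and tumour replicate 2, and tumour replicate 3 stood well above the other 5 arrays. The means were 4.89 ± 0.22 and 6.01 ± 1.08 (SD, n = 3 arrays per group), a difference of 1.13 with a standard error of 0.54 and a 95% interval from -0.17 to 2.42 that includes 0. Without tumour replicate 3 the difference was 0.52. With the level of the hybridization controls as a covariate it was 0.29. That level was highest in tumour replicate 3 (13.36, against 12.33 to 13.20 on the other arrays, log2).

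The remaining lactate and pyruvate carriers had weak signals. Slc16a7 encodes MCT2, which takes up pyruvate and lactate with high affinity. Its probe set was above background only in healthy-skin replicate 3, with 2.58, 3.19 and 4.47 (log2) in healthy skin and 2.66, 2.13 and 2.31 in tumours. The values overlapped, and the difference of -1.05 had a 95% interval from -2.24 to 0.15. Slc16a11 encodes MCT11, a proton-coupled pyruvate carrier, and had 3.14, 4.37 and 3.09 in healthy skin against 3.40, 4.36 and 4.53 in tumours. Its groups overlapped, with a difference of 0.56 and an interval from -0.59 to 1.71, and 2 arrays in each group were above background. Slc16a6 encodes MCT7, linked to ketone body export, and had 3.90, 3.34 and 3.88 in healthy skin and 3.76, 3.62 and 3.70 in tumours. The groups overlapped, with a difference of -0.01 and an interval from -0.68 to 0.65.

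For the carriers of other substrates, the 95% interval of every probe set included 0. Slc16a10 encodes the aromatic amino acid and thyroid hormone carrier TAT1 and had 4 probe sets. The one with the highest mean, 1434592_at, had 4.13, 3.58 and 3.24 (log2) in healthy skin and 4.44, 3.96 and 3.56 in tumours, with a difference of 0.33 and an interval from -0.54 to 1.21. The other 3 differed by between 0.11 and 0.41, so all 4 had a positive difference and all 4 overlapped. Of these, 1440569_at (0.41) and 1453675_at (0.11) were above background on no array. Slc16a9, a carnitine carrier, had 3 weak probe sets. The first, 1429726_at, had 2.11, 2.97 and 3.39 in healthy skin and 3.09, 2.63 and 1.98 in tumours (difference -0.26), and the second differed by -0.77. Each of these was above background only in healthy-skin replicate 3. The third, 1454104_a_at, went the other way without overlap, at 1.96, 1.97 and 1.75 against 2.17, 2.29 and 2.07, but was above background on no array. Slc16a12, the creatine carrier MCT12, was above background on no array either, with 1.63, 1.63 and 1.81 in healthy skin and 1.22, 3.06 and 2.77 in tumours.

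**Figure D2:**
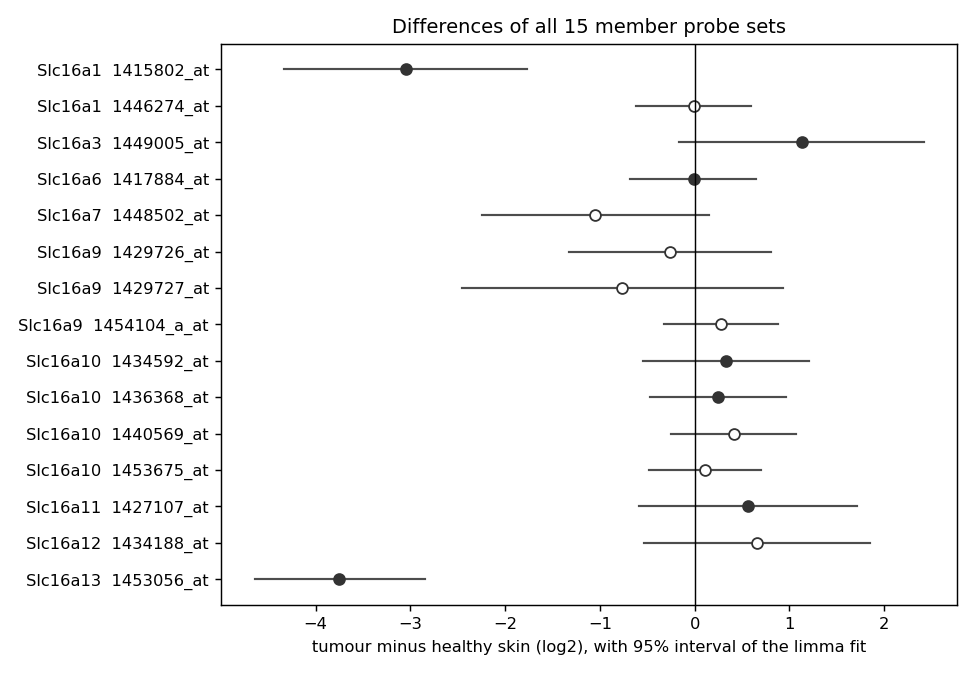
Difference of tumour minus healthy skin (log2, horizontal axis) for all 15 member probe sets, with the 95% interval of the limma fit. Filled points are probe sets above background on at least 3 arrays and open points are the others; the intervals of 1415802_at (Slc16a1) and 1453056_at (Slc16a13) lie wholly below 0, and the other 13 include 0.

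Over the 15 probe sets, 7 had a negative and 8 a positive difference. Groups did not overlap in 2 that were lower in tumours (Slc16a13 and Slc16a1), where 4.91% of all tested probe sets had this pattern. They did not overlap in 2 that were higher (Slc16a3 and the dim Slc16a9 probe set), against 6.22% of all. In the limma fit across all probe sets, 0 of the 15 had an adjusted p under 0.05, where 2 of 45037 did (0.00444%). Of the 15, 2 had an unadjusted p under 0.05, against 6.36% of all. Since the members were chosen with this contrast known, nothing is read from these counts. With 1 probe set per gene, the 9 members had a median difference of -0.01 (log2), with 4 positive and 5 negative, and the 18193 genes measured had a median of 0.08. The family thus had no common direction: the largest differences were -3.75 and 1.13.

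Markers of skin epithelium had more signal in the healthy-skin samples and so differed between the groups in the same direction as Slc16a13 and Slc16a1. The mean over 16 keratinocyte markers was 7.01, 7.34 and 7.75 (log2) in healthy-skin replicates 1, 2 and 3 and 5.88, 5.49 and 4.21 in tumour replicates 1, 2 and 3, and 15 of the 16 markers had a negative difference. Of these markers 14 were above background on all healthy-skin arrays and 10 on all tumour arrays, and Dsg1a and Flg were above it on no tumour array. Within healthy skin, Slc16a13 was highest in replicate 1 (7.62), where the keratinocyte mean was lowest (7.01). In tumours both were lowest in replicate 3 (2.88 and 4.21). The 4 sebocyte markers measured (Scd3, Mc5r, Elovl3 and Far2, of 8 listed) averaged 6.17, 6.10 and 6.35 in healthy skin and 2.92, 5.17 and 2.95 in tumours, and Mc5r was above background on no array. Tumour replicate 2, which had the highest sebocyte level of the tumour samples, also had the highest Slc16a1 value of them. It had the highest macrophage level as well (7.72, against 5.61 and 5.70). The part of these cell types in the values of Slc16a13 and Slc16a1 was not tested. In tissue captures, fewer cells of a type and less RNA per cell cannot be told apart.

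**Figure D3:**
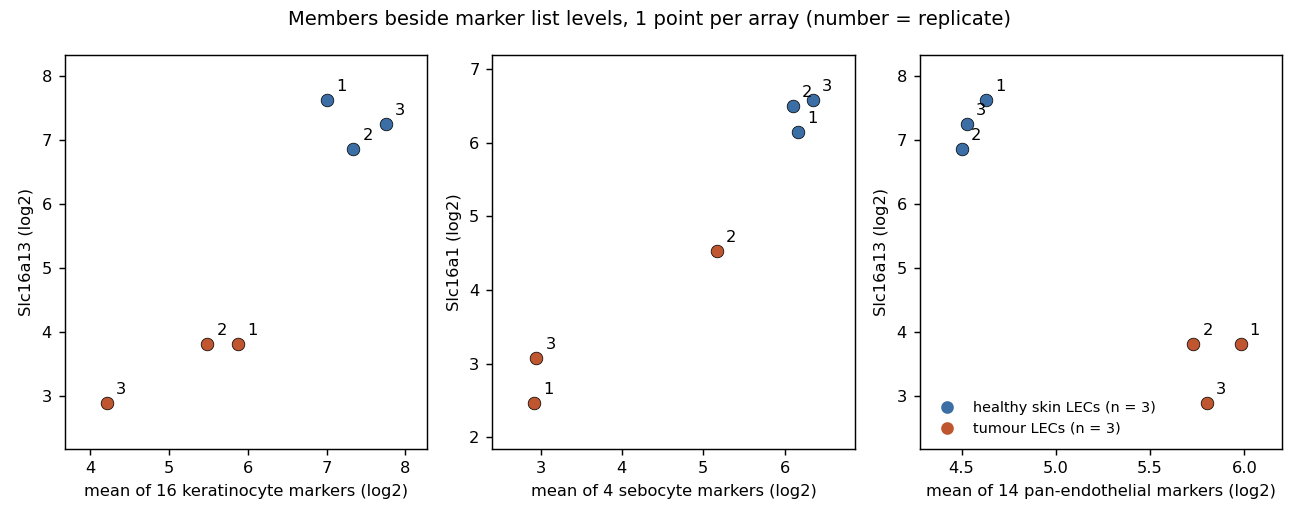
Slc16a13 or Slc16a1 (log2, vertical axis) against the mean of a marker list on the same array (log2, horizontal axis), 1 point per array with its replicate number, healthy skin in blue and tumours in orange. The groups stand apart on both axes of each panel, Slc16a13 with keratinocyte markers in the same direction and with pan-endothelial markers in the opposite direction.

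The label of the captured cells was checked against their markers. Lyve1 had 3.21, 7.58 and 6.81 (log2) in healthy skin and 9.64, 9.41 and 9.65 in tumours, and was below background in healthy-skin replicate 1. Prox1 and Pecam1 were above background on all 6 arrays. The mean of 10 LEC markers lay between 5.57 and 6.33 in healthy skin and between 6.92 and 7.18 in tumours, and that of 14 pan-endothelial markers between 4.50 and 4.63 and between 5.73 and 5.98. The endothelial lists were thus higher in all tumour samples, where Slc16a13 and Slc16a1 were lower. Without healthy-skin replicate 1, the differences were -3.56 for Slc16a13, -3.19 for Slc16a1 and 1.25 for Slc16a3. Over the 6 arrays left out in turn, they ranged from -3.94 to -3.44, from -3.64 to -2.60 and from 0.52 to 1.55. Groups that do not overlap keep their sign when an array is left out, so only the sizes are given. The other marker lists, apart from macrophage markers, overlapped between the groups: fibroblast (7.66 to 9.51 in healthy skin, 5.90 to 9.20 in tumours), adipocyte (4.27 to 4.57, 4.04 to 4.75), skeletal muscle (3.29 to 3.97, 3.62 to 4.30), mammary luminal (3.30 to 3.68, 3.45 to 3.64), red blood cell (2.93 to 3.39, 3.20 to 3.70) and melanocyte markers (3.43 to 3.62, 3.34 to 3.85). The probe sets are for mouse genes and the tumour line is human. The overlap of the melanocyte list therefore does not show whether the captures held tumour-cell RNA. How human RNA would read on these probe sets was not tested. Macrophage markers lay between 5.31 and 5.59 in healthy skin and between 5.61 and 7.72 in tumours. Adipoq, a defining adipocyte marker, and Myh1, a muscle myosin, were above background on no array. Other markers of these lists were not absent. Of 8 adipocyte markers, 4 were above background on all healthy-skin arrays and 4 on all tumour arrays. Of 11 skeletal muscle markers, 6 and 6 were.

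Of the accessory glycoproteins, basigin, embigin and neuroplastin, none passed the test. Bsg encodes basigin, the partner of MCT1 and MCT4, and had 5.58, 4.75 and 4.73 (log2) in healthy skin and 5.75, 6.08 and 5.67 in tumours. The groups did not overlap, with a difference of 0.81, a standard error of 0.34 and a limma adjusted p of 0.779. Emb, which encodes embigin, had 4.12, 8.26 and 6.41 in healthy skin and 3.63, 5.13 and 3.26 in tumours. Its healthy-skin values spanned more than the difference between the groups (-2.25, limma adjusted p = 0.812), and its other probe sets differed by -2.49 and -0.13. Nptn, which encodes neuroplastin, a relative of basigin, differed by -0.75 (limma adjusted p = 0.893), against -0.15 for a second probe set of the gene. Slc16a1 thus had a negative difference and the gene of its partner basigin a positive one.

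The enzymes that make or use the transported acids gave no call. Ldha, the lactate dehydrogenase subunit favoured in glycolytic cells, had 7.16, 7.73 and 7.54 (log2) in healthy skin and 7.45, 7.40 and 7.31 in tumours, a difference of -0.09 with an interval from -0.74 to 0.56. Ldhb, the subunit favoured in cells that oxidise lactate, had 8.85, 10.53 and 8.10 against 7.02, 5.41 and 2.36. Its groups did not overlap, with a difference of -4.23, a standard error of 1.21 and a limma adjusted p of 0.62. The other 3 Ldhb probe sets had differences of -2.89, -2.91 and -2.92, each without overlap, and the smallest limma adjusted p among them was 0.329. In the list of 16 measured lactate and pyruvate genes, 6 had a positive and 10 a negative difference, with a median of -0.30 against 0.08 over all genes. Pdha1, a subunit of pyruvate dehydrogenase, differed by 1.77 on this probe set and by -0.56 on its other one (limma adjusted p = 0.809 and 0.93).

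Of 16 measured genes of glucose uptake and glycolysis, 12 had a positive difference, the median was 0.21 and none passed the test. Slc2a1, the glucose transporter GLUT1, had 6.97, 7.28 and 8.99 (log2) in healthy skin and 9.37, 8.19 and 9.86 in tumours, with a difference of 1.40 and a limma adjusted p of 0.816. Its other probe sets, both above background on all 6 arrays, differed by 1.40 and 0.08, and the groups overlapped on each of the 3. The smallest p of the list were those of the glycolytic enzymes Pgam1 (difference 0.85, limma adjusted p = 0.729) and Hk1 (difference 0.77, limma adjusted p = 0.751).

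The lists tied to the other substrates had no call either. Of 5 measured ketone body genes 4 had a negative difference, with a median of -0.84. Acat1, a mitochondrial thiolase, differed by -2.62 (limma adjusted p = 0.738), but by -0.52 and 0.18 on its other probe sets, and Bdh2 by 0.77 (limma adjusted p = 0.758). Among 13 carnitine and creatine genes the median was 0.01. Slc25a20, the mitochondrial carnitine carrier, had 6.35, 7.97 and 7.83 (log2) in healthy skin and 3.97, 5.59 and 1.93 in tumours. The difference was -3.55 with a limma adjusted p of 0.58, and -1.23 on its other probe set, where the groups overlapped. Crat, carnitine acetyltransferase, differed by -1.27 (limma adjusted p = 0.74), and by -0.18 and 0.15 on its other probe sets. Thyroid hormone and aromatic amino acid genes had a median of -0.03 over 11 genes. The smallest p were those of Crym, which binds thyroid hormone (difference 0.78, limma adjusted p = 0.695), and Thra, a thyroid hormone receptor (0.57, limma adjusted p = 0.843, but -0.70 and 0.03 on its other probe sets). Crym was above background only in tumour replicate 2. The sodium-coupled carriers and monocarboxylate receptors, 4 genes with a median of 0.08, were above background on no array. Among them Hcar2 differed by 0.56 (limma adjusted p = 0.87) and Slc5a8 by 0.09 (limma adjusted p = 0.976).

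Other measured Slc16 genes lay within a narrower range. Slc16a8, the MCT3 of retinal pigment epithelium, differed by 0.31 on the probe set with the higher mean and by -0.20 on its other one. In the same order Slc16a5 had 0.42 and 0.30, Slc16a4 0.08 and -0.89, and Slc16a14 -0.89 and -1.09. The groups overlapped except on the last of these, which was above background on 1 array, and the limma adjusted p lay between 0.848 and 0.982. Over all lists, 0 of 72 measured pathway genes passed limma at an adjusted p of 0.05, where 1 of 18193 genes did (0.0055%). At an unadjusted p under 0.05 there were 10, namely 5 higher and 5 lower, where 7.5% of all genes reached it.

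**Figure D4:**
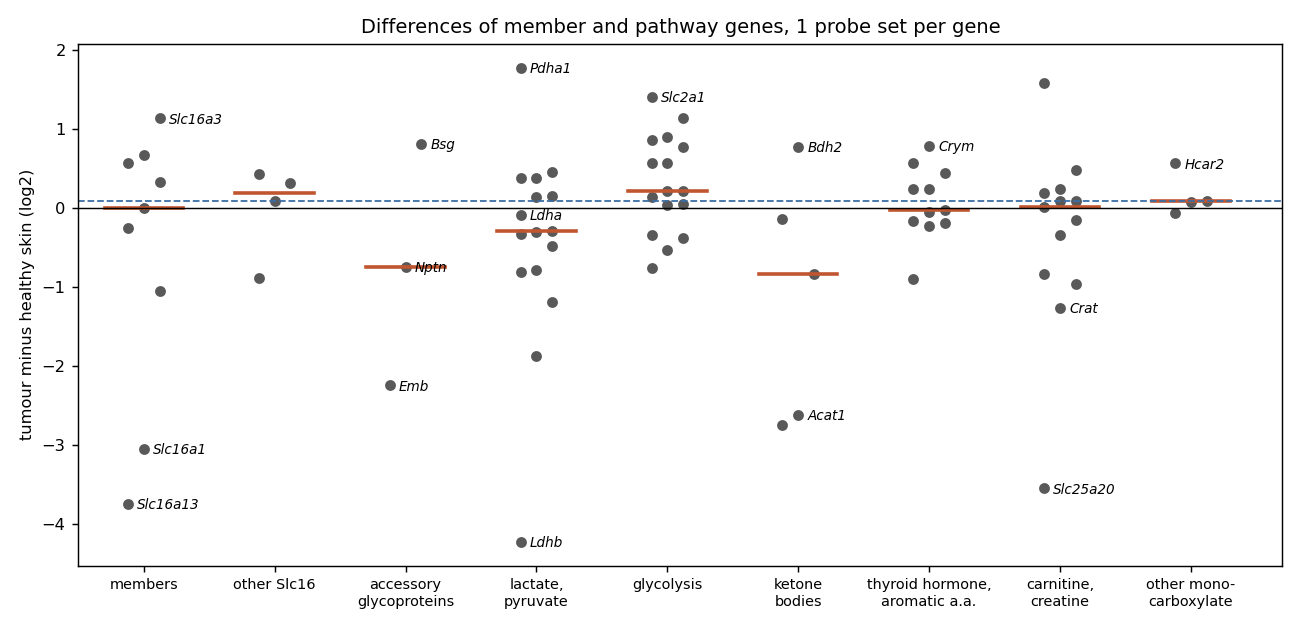
Difference of tumour minus healthy skin (log2, vertical axis) for each measured gene of the family and of 8 related lists, 1 probe set per gene, with orange bars at the list medians and a dashed blue line at the median of all genes (0.08). Members reach from -3.75 to 1.13, Ldhb and Slc25a20 lie lowest among the other genes, and the list medians lie between -0.84 and 0.21.

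The genes whose pattern over the 6 arrays was most like that of Slc16a13 were named by Pearson correlation among 17356 probe sets above background on at least 3 arrays. They were Clec10a (r = 0.994), Calml3 (0.988), Fam193a (0.987), Map2k4 (0.984) and Dtymk (0.984). The candidates had a single symbol and did not end in _x_at. The 6 arrays fall into 2 groups that differ in Slc16a13, so that r includes this difference and is given as a description. Of the candidates, 47 had an r over 0.95. Clec10a, Calml3 and Dtymk passed the background filter through the healthy-skin arrays alone. Their lower signal in tumours follows from how they were picked, and the folds below only describe its size. Clec10a, a lectin of macrophages and dendritic cells, had 4.32, 4.01 and 4.20 (log2) in healthy skin and 2.82, 2.72 and 2.65 in tumours, where it was above background on no array. Set against the tumour arrays' background, its signal was at least 1.49-fold lower there. Calml3, a calmodulin-like protein of epithelia, had a mean of 5.27 in healthy skin and 2.64 in tumours, where it too was below background (at least 3.18-fold lower). Dtymk, thymidylate kinase, went from 6.82 to 2.39, again below background in every tumour sample (at least 9.35-fold lower). Map2k4, a kinase upstream of JNK, and Fam193a differed by -0.92 and -1.04.

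Clec10a also lies close to Slc16a13 on mouse chromosome 11, which was noticed after its values were seen. In the RefSeq gene table (GRCm38.p6), the protein-coding genes in order are Mgl2, Clec10a, Slc16a11, Slc16a13, Bcl6b, 0610010K14Rik and Rnasek. The neighbours did not share 1 direction. Mgl2, a lectin gene closely related to Clec10a whose probes may cross-react with it, had 2.16, 4.36 and 3.34 (log2) in healthy skin and 1.28, 1.89 and 1.15 in tumours, and was above background on 2 healthy-skin arrays only. Slc16a11, directly beside Slc16a13, had the overlapping values given above. Bcl6b, a transcriptional repressor known in endothelium, had 6.99, 5.86 and 7.53 in healthy skin and 10.83, 7.93 and 8.25 in tumours (difference 2.21, limma adjusted p = 0.735). Rnasek differed by 0.50 on the probe set with the higher mean, and no probe set with a single symbol was found for 0610010K14Rik. The macrophage list averaged 5.45, 5.59 and 5.31 in healthy skin and 5.61, 7.72 and 5.70 in tumours, where Clec10a and Mgl2 were lower. Only tumour replicate 2 thus stood clear of healthy skin. Of the 12 macrophage markers 11 had a positive difference and 1, Mrc1, a negative one (-1.76). The part of macrophages in the values of Clec10a and Mgl2 was not tested.

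**Figure D5:**
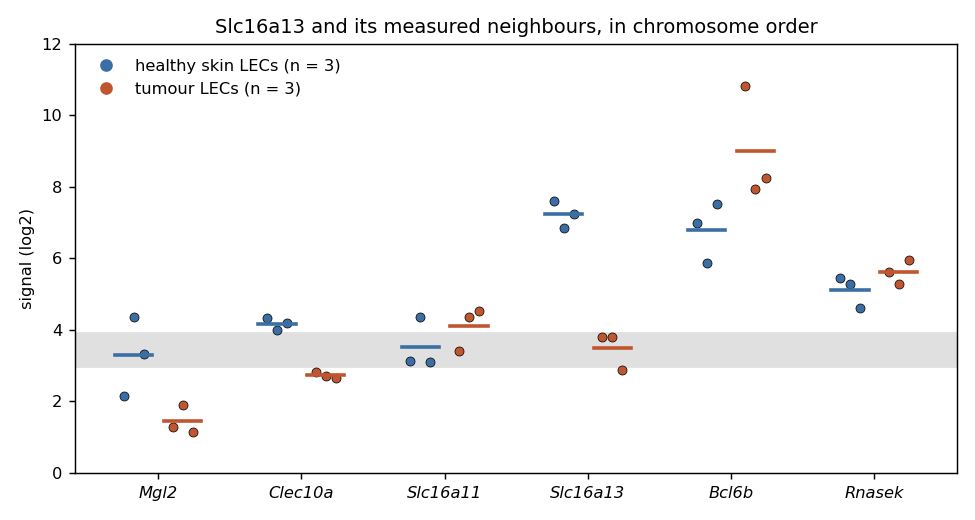
Signal (log2, vertical axis) on each array for Slc16a13 and 5 measured neighbours in chromosome order, healthy skin in blue and tumours in orange, with bars at the group means and a grey band for the background of the 6 arrays. Mgl2, Clec10a and Slc16a13 are lower in the tumour samples, Bcl6b is higher, and Slc16a11 and Rnasek overlap.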

How the data were processed

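The data are 1 Affymetrix mouse array for each of 6 samples. The authors deposited intensity values per probe set. The submitters' processing notes name RMA, that is background correction, quantile normalization and summary over probes, and the range of the values showed that they are not logarithms. Software, version and filters: not given in the sources used here. Normalization of this kind removes overall differences in RNA amount.

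Log2 was taken without a pseudocount. The 64 control probe sets were left out and all other 45037 were fitted with limma 3.58.1 in R 4.3.3 (tumour minus healthy, no block, prior degrees of freedom 2.82). P-values were adjusted over all of them by Benjamini and Hochberg's method, with a threshold of 0.05. The fit was tested on simulated data, with 50 changes planted at each size. It called 0 of those of 1 (log2), 11 of those of 2, 33 of those of 4 and 45 of those of 8, with 4 false calls. A missing call therefore says little about small differences. Gene names came from the platform annotation (34945 probe sets with 1 symbol, 932 with several, 9160 with none), and all 15 member probe sets matched the RefSeq gene table. A gene of a list was represented by its probe set with the highest mean over the 6 arrays. Named were all members, basigin, embigin, neuroplastin, both lactate dehydrogenases, Slc2a1, other measured Slc16 genes and up to 2 genes of smallest p in each further list, plus the 5 probe sets most like Slc16a13. The members and lists were chosen with earlier results of these data known. The chromosomal neighbours were added after their values were seen. Listed genes that matched no probe set with a single symbol were not analysed here. Alternatives were a filter on dim probe sets, other normalizations, a replicate block, other variance settings, array weights, log2(value + 16), a control-level covariate, each array left out and the mean over a gene's probe sets.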

Additional observations from a re-analysis of the deposited data

How the results depend on the processing

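In the 14 alternatives run on them, Slc16a13 lay between -3.94 and -2.60, Slc16a1 between -3.64 and -1.88 and Slc16a3 between 0.29 and 1.55 (log2). Their unchanged signs are not read as support. The dim filter, the replicate block and the trend and robust options leave a difference as it is. Leaving out an array cannot reverse groups that do not overlap. Slc16a11 had -0.07 with array weights. The Slc16a9 probe sets 1429726_at and 1429727_at, at -0.26 and -0.77, had 0.44 and 0.13 with the control-level covariate and 0.02 and 0.09 without healthy replicate 3, and Slc16a7 went from -1.05 to -0.52 without that array. Slc16a6 and the dim Slc16a1 probe set, both at -0.01, took either sign. No member probe set was called by limma, except 1, Slc16a13, with the filter on dim probe sets and 1, again Slc16a13, with array weights; leaving out any array gave 0. The family was chosen by Slc16a13 in this contrast, so nothing is read from these calls. No pathway gene was called in any of the 15 alternatives. The median of the member genes moved between -0.19 and 0.16. Over all probe sets 2 were called, against 21 with the dim filter, 22 with array weights, 1 with trend and robust options, 0 with centring on array medians, log2(value + 16) or the control-level covariate, and between 0 and 23 with an array left out (23 without tumour replicate 2). The cause was not tested. The replicate numbers did not pair the samples (correlations of deviations of 0.04, 0.10 and -0.01), and the replicate block gave 0 calls over all probe sets and 0 among the members. Signals near background limit most member probe sets. Of the 15, 8 were above background on fewer than 3 arrays and only 1 was above it on all 6. Slc16a13 and Slc16a1 are among those limited, by their tumour values.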
